A study of Rattus norvegicus with 10 samples.

Results

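The genes described are Hcn2, Hcn3 and Hcn4, which encode subunits of the HCN pacemaker channels, and Pex5l, which encodes their auxiliary subunit TRIP8b. They were taken by symbol from a table of read counts per RefSeq RNA record, and each of the 4 genes matched 1 of the 32041 rows (NM_053684.1, NM_053685.1, NM_021658.1 and NM_173152.1). Messenger RNA came from the CA3 and dentate gyrus of the left hippocampus of adult male Sprague-Dawley rats, 5 sham operated and 5 with TBI from lateral fluid percussion at 3.32 atm, all killed 3 months after the operation. By the protocol, sham rats had the same anaesthesia and left parietal craniectomy with intact dura, without the pressure pulse. The labels gave no seizure history for any rat, so the groups separate injury from sham operation and not epilepsy from its absence. Each library carries the label of a single rat, and replicate numbers below follow sample order.

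HCN channels are tetramers that open when the membrane is hyperpolarized and carry the inward cation current Ih. Cyclic AMP binds to their cytoplasmic domain and makes them open more easily, and subunits differ in how strongly they respond. In pyramidal neurons Ih is concentrated in distal dendrites, where it lowers input resistance and shortens synaptic potentials. TRIP8b binds HCN subunits at the carboxyl terminus and at the cyclic nucleotide binding domain, and its splice forms steer channels to or from the cell surface and antagonize cyclic AMP. Ih and its subunits have been studied widely in models of acquired epilepsy.

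Total counts ran from 23425817 to 31671838 per library. Ribosomal RNA took 59.0% and 58.5% of counts in sham replicates 4 and 5 and 12.5% to 26.2% in the other rats, so the members were read at lower depth in those 2 sham rats. Values below are CPM, the reads of a gene scaled to a common library size, with library sizes adjusted by the trimmed mean of M values (TMM). CPM of 1 gene can be compared between rats, but the transcript lengths needed to compare levels between genes were not used. The labelled tissue was checked against marker genes fixed for each cell type. The 4 CA3 markers tested summed to 525 to 716 CPM in sham rats and 504 to 696 CPM in TBI rats, and the 4 dentate granule markers to 62.6 to 207 CPM and 84.4 to 199.85 CPM. CA1 is not part of the tissue the protocol names, and its 4 markers summed to 49.7 to 106 CPM in sham rats and 37.7 to 377 CPM in TBI rats. The 6 thalamus markers tested stayed at 26.1 to 35.9 CPM and 28.3 to 31.3 CPM. No marker with a matched row was at 0 in all rats. In bulk tissue, fewer cells of a type and less RNA per cell cannot be told apart.

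Hcn2 encodes a subunit with a strong response to cyclic AMP, found in many neurons and also in oligodendrocytes. It gave 1473 to 4124 reads per rat. Sham replicates 1 to 5 had 116, 82.4, 99.3, 102 and 92.0 CPM, and TBI replicates 1 to 5 had 85.7, 109.7, 111, 111 and 101 CPM. TBI replicates 2 to 5 lay close together in the upper part of the sham range, TBI replicate 1 lay near its bottom, and the groups overlapped. The sham mean was 98.2 CPM ± 12.3 (SD, n = 5) and the TBI mean 103 CPM ± 10.8 (SD, n = 5). The log2 change of TBI over sham was 0.07 with a standard error of 0.0948, and its 95% interval ran from -0.12 to 0.27. Leaving out sham replicate 2 gave 0.02 and leaving out sham replicate 1 gave 0.14, the extremes over the 10 rats. As a ratio of TBI to sham, this interval is 0.917 to 1.21.

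Hcn3 encodes a subunit that responds little to cyclic AMP and is known best from the hypothalamus and retina. It gave 79 to 348 reads per rat. The sham rats had 10.9, 5.86, 6.04, 6.12 and 4.94 CPM in order of replicate, and the TBI rats had 4.20, 6.01, 7.07, 5.69 and 6.86 CPM. Sham replicate 1 stood above all other rats, and the remaining sham rats lay inside the TBI range. The means were 6.76 CPM ± 2.34 (SD, n = 5) and 5.97 CPM ± 1.14 (SD, n = 5), with a log2 change of -0.20 (95% interval -0.63 to 0.22). Without sham replicate 1 the log2 change was 0.05 with a standard error of 0.142, so the direction of the difference rested on that rat. It was also above 0 with total count scaling, described below with the other scales. The same rat had 62.6 CPM of the dentate granule markers, against 185 to 207 CPM in the other sham rats, and 581 CPM of the 12 GABAergic markers, against 440 to 512 CPM. It also had the highest CA3 and general neuron sums of the 10 rats, at 716 and 3199 CPM, and the lowest oligodendrocyte and astrocyte sums, at 2574 and 1626 CPM. The part of these markers in its Hcn3 level was not tested. TBI replicate 5, the injured rat with the lowest dentate granule markers at 84.4 CPM, had 6.86 CPM of Hcn3. Only sham replicate 1 and TBI replicate 3 had more Hcn3. Other injured rats went the other way. TBI replicate 3 had the highest dentate granule sum of the TBI rats, 199.85 CPM, and their highest Hcn3, 7.07 CPM. TBI replicate 1 had 118 CPM of these markers and the lowest Hcn3 of all rats, 4.20 CPM.

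Hcn4 encodes the subunit of the cardiac pacemaker, which in brain is strongest in thalamus and in some interneurons. It was at the limit of what the depth allows, with 12 to 45 reads per rat and 313 reads over all 10 rats. The sham rats had 1.40, 1.22, 1.01, 0.884 and 0.750 CPM and the TBI rats had 1.07, 0.985, 1.26, 0.886 and 0.855 CPM. All TBI values lay inside the sham range. The means were 1.05 CPM ± 0.262 (SD, n = 5) and 1.01 CPM ± 0.164 (SD, n = 5), and the log2 change was -0.10 (95% interval -0.54 to 0.33). Without sham replicate 1, which had the most Hcn4, the log2 change was 0.02. The coefficient of variation between rats was 24.9% in sham and 16.2% in TBI rats, and counting error alone gives 22.1% and 16.9% at these depths. For Hcn4 a difference between single rats below this spread therefore cannot be told from counting error. For the group difference the limit is the 95% interval of the log2 change, -0.54 to 0.33. For Hcn2 counting error gives 2.18% in sham rats, while the rats varied by 12.5%.

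Pex5l gave 274 to 1219 reads per rat. The sham rats had 23.4, 22.5, 24.2, 18.6 and 21.2 CPM, and the TBI rats had 35.3, 32.0, 22.2, 20.3 and 21.6 CPM. TBI replicates 1 and 2 lay above each sham rat, and the other injured rats lay within the sham range. The sham mean was 22.0 CPM ± 2.17 (SD, n = 5) and the TBI mean 26.3 CPM ± 6.88 (SD, n = 5), while the medians were 22.5 and 22.2 CPM. The log2 change was 0.25 with a standard error of 0.146 (95% interval -0.06 to 0.57), and it was 0.12 without TBI replicate 1 and 0.17 without TBI replicate 2.

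Some marker sums were also highest in those injured rats. The 4 CA1 markers summed to 217 CPM in TBI replicate 1 and 377 CPM in TBI replicate 2, against 37.7 to 145 CPM in the other TBI rats and 49.7 to 106 CPM in sham rats. The 6 astrocyte markers summed to 3348 and 3174 CPM in the same rats, against 1790 to 2642 CPM in the other TBI rats and 1626 to 2476 CPM in sham rats. Gfap made up 2308 and 2191 CPM of these sums, and each marker but Slc1a3 lay above all sham rats in both. TBI replicate 5 also exceeded the sham range for both lists, at 145 and 2642 CPM, with 21.6 CPM of Pex5l. TBI replicate 4 exceeded it for the astrocyte list alone, at 2523 CPM, with 20.3 CPM of Pex5l. The 8 general neuron markers were at 2566 and 2467 CPM in these rats, the lowest values of the 10. Whether CA1 tissue or astrocytes had a part in the Pex5l values was not tested.

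**Figure D1:**
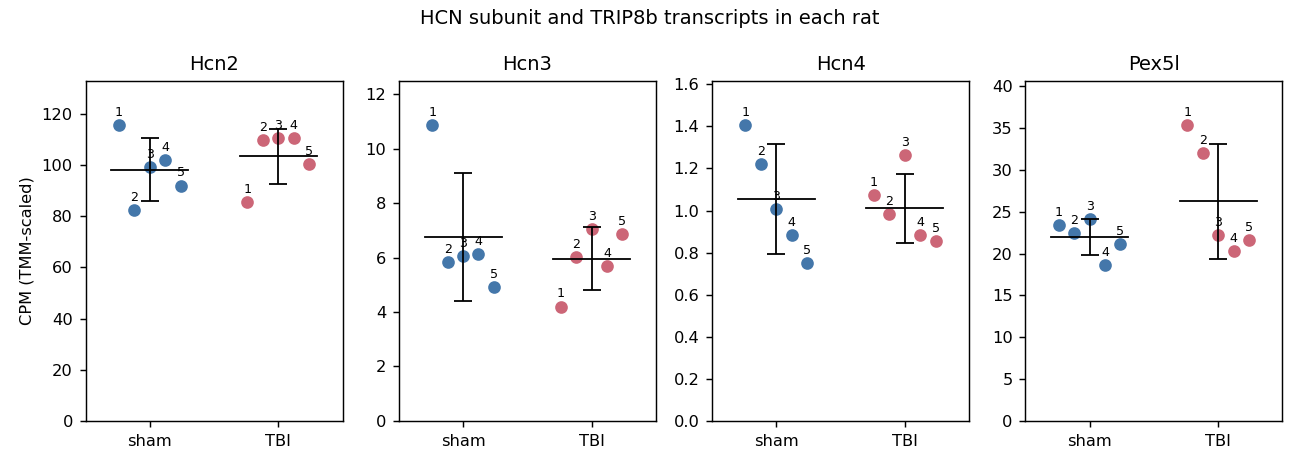
CPM of each gene (vertical axis from 0, a scale of its own per panel) in the 5 sham rats (blue) and 5 TBI rats (red), with replicate numbers beside the points, a line at the mean and bars of 1 SD. Sham replicate 1 stands apart for Hcn3 at 10.9 CPM, TBI replicates 1 and 2 lie above the sham rats for Pex5l at 35.3 and 32.0 CPM, and the groups overlap in each panel.

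**Figure D2:**
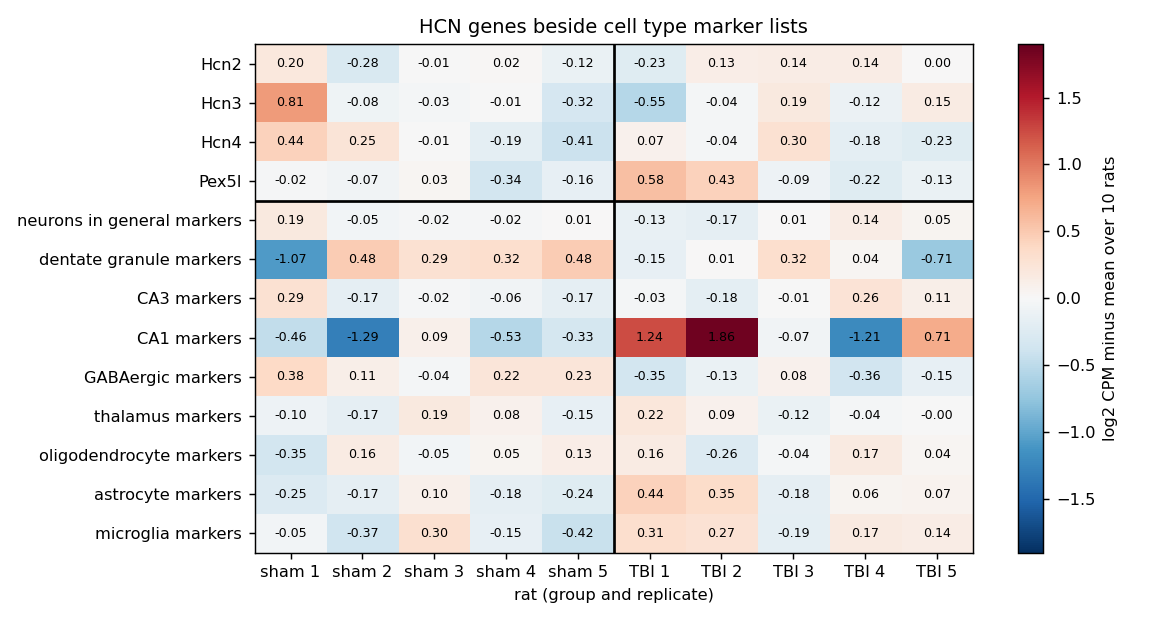
Log2 CPM minus the mean over the 10 rats (colour and printed value) for the 4 genes and, below the line, for the mean of each cell type marker list, with rats in columns. Sham replicate 1 combines the highest Hcn3 with the lowest dentate granule value, and TBI replicates 1 and 2 combine the highest Pex5l with the highest CA1 and astrocyte values.

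The question of the comparison was whether transcripts of the channel and its auxiliary subunit differ 3 months after injury. In edgeR's quasi-likelihood test over 22431 rows, 0 of the 4 genes passed a Benjamini-Hochberg adjusted p of 0.05, and 0% of all rows did. At that threshold DESeq2 called 3 rows, and edgeR called 92 with total count scaling, 12 without TBI replicate 3 and 5 without sham replicate 3, none of them a member. The unadjusted p was under 0.05 for 0 of the 4, against 7.89% of all rows. The groups did not overlap for 0 of the 4, against 0.923% of all rows. The unadjusted p-values of the quasi-likelihood test were 0.103 for Pex5l, 0.327 for Hcn3, 0.442 for Hcn2 and 0.622 for Hcn4, and the adjusted values were 0.716, 0.854, 0.891 and 0.936. These p-values do not show that levels were equal. The intervals left room for a rise of Pex5l up to 1.48-fold and a fall of Hcn3 to 0.648-fold.

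The scale of the values mattered for direction. Scaling by total counts, which treats ribosomal RNA as library size, moved the median over all rows from -0.01 to 0.50 (log2). On that scale the log2 changes were 0.58 for Hcn2, 0.27 for Hcn3, 0.36 for Hcn4 and 0.72 for Pex5l, so Hcn2 and Pex5l lay above the shifted median and Hcn3 and Hcn4 below it. Pex5l then had a standard error of 0.319, an unadjusted p of 0.0234 and in edgeR an adjusted p of 0.274. Its unadjusted p was also under 0.05 without TBI replicate 4, at 0.0268, with a log2 change of 0.33. Over the 21 alternative fits the adjusted p of Pex5l ran from 0.274 to 0.989. With the share of ribosomal RNA as a covariate, Hcn3 had a log2 change of -0.46 with an unadjusted p of 0.0503 and an adjusted p of 0.974 in edgeR, and over the 21 alternatives its adjusted p ran from 0.450 to 0.997. Without sham replicates 4 and 5 the log2 changes were 0.07, -0.34, -0.26 and 0.18 for Hcn2, Hcn3, Hcn4 and Pex5l.

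**Figure D3:**
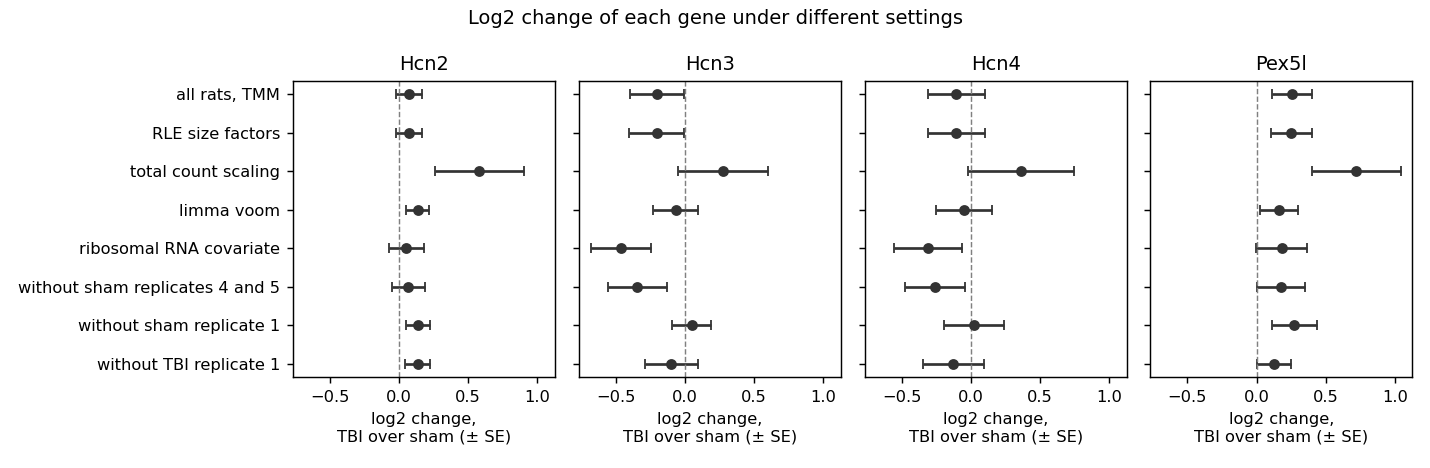
Log2 change of TBI over sham (horizontal axis, bars of 1 standard error) for each gene in 8 of the fits named on the left, with a dashed line at no change. Hcn2 and Pex5l stay above 0 in each fit shown, while Hcn3 and Hcn4 lie below 0 with all rats and above 0 with total count scaling and without sham replicate 1.

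Ratios of reads between members of the same library need no library size or scaling. They were used to ask whether the makeup of subunits, or the supply of TRIP8b relative to subunits, differed between groups. For each Pex5l read, sham rats had 4.94, 3.66, 4.11, 5.47 and 4.35 Hcn2 reads, and TBI rats had 2.42, 3.43, 4.97, 5.46 and 4.65. TBI replicates 1 and 2 had the fewest Hcn2 reads per Pex5l read of all rats, and the others lay in the sham range. The sham mean of the log2 ratio was 2.16 ± 0.226 (SD, n = 5) and the TBI mean 2.01 ± 0.479 (SD, n = 5), a difference of -0.15 with a standard error of 0.237 (two-sided exact permutation p = 0.603). Without TBI replicate 1 this difference was 0.03. For Hcn2 over Hcn3 the mean log2 ratio was 3.90 ± 0.311 in sham rats and 4.13 ± 0.203 in TBI rats (n = 5 each, two-sided exact permutation p = 0.238). Sham replicate 1 had 10.6 Hcn2 reads for each Hcn3 read, the fewest of all rats, and the others had 14.1 to 20.4. The difference for Hcn2 over Hcn3 was 0.23, and it was 0.10 without sham replicate 1.

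Hcn3 over Pex5l showed the widest spread, from a log2 ratio of -3.07 in TBI replicate 1 to -1.10 in sham replicate 1. Its difference between groups was -0.38 with a standard error of 0.328 (two-sided exact permutation p = 0.317), and it was -0.21 without sham replicate 1 and -0.14 without TBI replicate 1. Hcn4 over Pex5l differed by -0.28 (exact permutation p = 0.222), Hcn2 over Hcn4 by 0.13 (exact permutation p = 0.548) and Hcn3 over Hcn4 by -0.10 (exact permutation p = 0.635), the last of which was 0.05 without TBI replicate 1. Hcn2 over Hcn4 ran from 0.0076 (without sham replicate 2) to 0.22 (without TBI replicate 1). Without sham replicates 4 and 5, the rats richest in ribosomal RNA, the differences were 0.38 for Hcn2 over Hcn3, 0.33 for Hcn2 over Hcn4, -0.06 for Hcn2 over Pex5l and -0.05 for Hcn3 over Hcn4 (exact permutation p = 0.0893, 0.161, 0.875 and 0.893). Without these sham rats, Hcn3 over Pex5l differed by -0.44 and Hcn4 over Pex5l by -0.39 (exact permutation p = 0.357 and 0.143). The smallest exact permutation p of any alternative was 0.0794, for Hcn4 over Pex5l without TBI replicate 3, at -0.41. With all rats, each exact permutation p was 0.635 after adjustment over the 6 ratios. The smallest p that 5 against 5 rats can give is 0.00794. No ratio separated the groups.

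**Figure D4:**
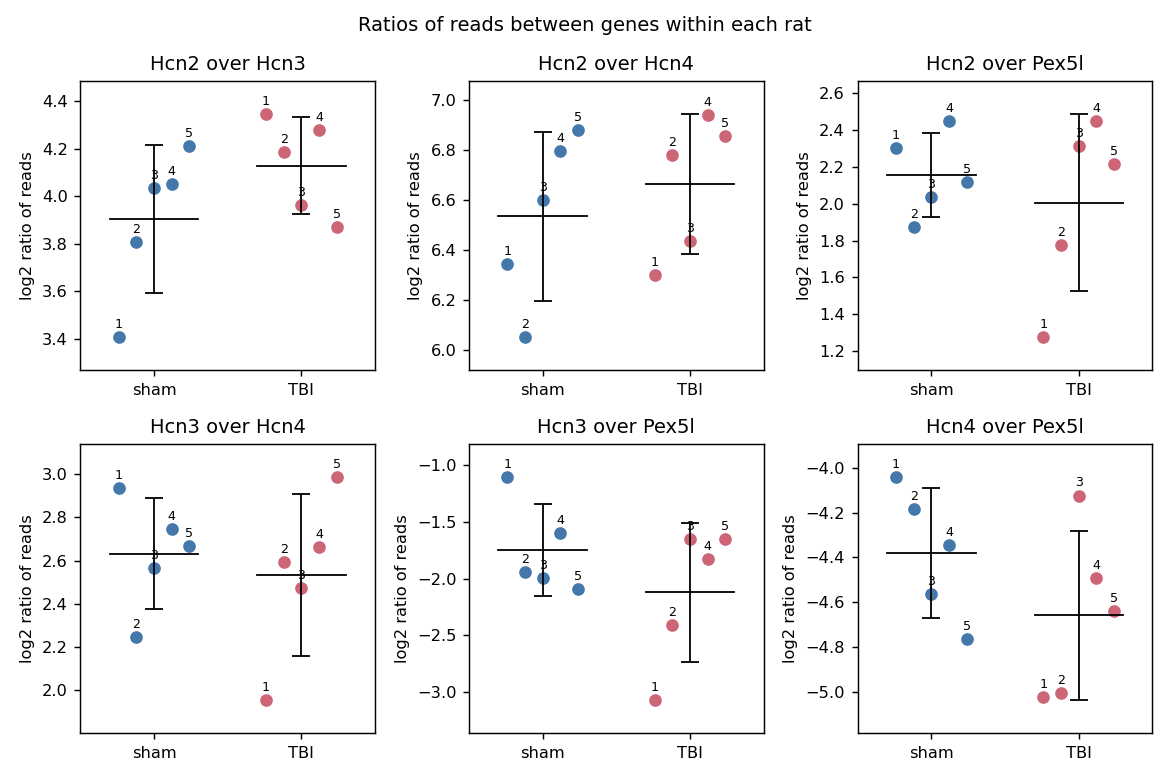
Log2 ratio of reads (vertical axis, each count raised by 0.5) for the 6 pairs of genes in each sham rat (blue) and TBI rat (red), numbered by replicate, with a line at the mean and bars of 1 SD. The groups overlap for each pair, and TBI replicate 1 is the lowest injured rat in all but Hcn2 over Hcn3, where it is the highest.

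Correlations between members across the 10 rats depended on the scale. On CPM outside ribosomal RNA without TMM all 6 r were above 0, at 0.74 for Hcn2 with Hcn3, 0.58 for Hcn2 with Hcn4, 0.68 for Hcn3 with Hcn4, and 0.45, 0.12 and 0.60 for Pex5l with Hcn2, Hcn3 and Hcn4. With TMM, Hcn2 and Hcn3 had a Pearson r of 0.67 (permutation p = 0.0267, adjusted over the 6 pairs 0.160) and a Spearman rho of 0.60 (permutation p = 0.0719, adjusted 0.307). Their r was 0.67 without the 2 rats farthest from the median of Hcn2 and 0.65 within the 8 rats of lower ribosomal RNA share (permutation p = 0.0772). On deviations from group means it was 0.77 (permutation p = 0.0093, adjusted 0.0558). Leaving out 1 rat gave 0.56 (without TBI replicate 1, permutation p = 0.123) to 0.79 (without sham replicate 2, permutation p = 0.0109, adjusted 0.0654). Hcn3 and Hcn4 had an r of 0.56 (permutation p = 0.0901, adjusted 0.270) and a rho of 0.36 (permutation p = 0.312, adjusted 0.624). This r was 0.19 without sham replicate 1, 0.53 without the 2 rats farthest from the median of Hcn3 (sham replicate 1 and TBI replicate 1) and 0.50 within the 8 rats. Pex5l had an r of -0.21 with Hcn2, -0.32 with Hcn3 and 0.25 with Hcn4 (permutation p = 0.571, 0.347 and 0.489, adjusted 0.686 for each), and its rho was -0.22, -0.12 and 0.55 (permutation p = 0.539, 0.759 and 0.102, adjusted 0.673, 0.759 and 0.307). Without the 2 rats farthest from the median of the HCN gene of each pair, not of Pex5l, these r were 0.29, 0.06 and 0.26. Within the 8 rats they were -0.30, -0.49 and 0.01. The r of Pex5l with Hcn2 was 0.20 and that with Hcn3 0.10 without TBI replicate 1, so both signs rested on that rat. Hcn2 and Hcn4 had an r of 0.14 (permutation p = 0.688, adjusted 0.688) and a rho of 0.21 (permutation p = 0.561, adjusted 0.673). Leaving out sham replicate 1 gave an r of -0.15, leaving out both rats farthest from the median of Hcn2 (sham replicate 2 and TBI replicate 1) gave 0.77, and the 8 rats gave 0.01. The sham rats richest in ribosomal RNA were too few for a value of their own. No pair passed 0.05 after adjustment.

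The transcripts whose levels over the 10 rats were most like each member were ranked by Pearson r among 10718 symbols with a mean of at least 1 CPM, as a description without a test. For Hcn2 they were Lrp3 (r = 0.96), Poll (0.96) and Cbarp (0.95), the last of which encodes a regulator of voltage-gated calcium channels. For Hcn3 they were Maged1 (0.97), Entpd6 (0.95) and Cplx1 (0.95), which encodes the presynaptic protein complexin 1. For Hcn4 they were Utp15 (0.89), Zbtb8b (0.88) and Kif3c (0.87), a kinesin gene. For Pex5l they were Carmil1 (0.98) and Arhgap31 (0.97), which encode regulators of actin, and Dglucy (0.94). The 99th percentile of r over the symbols was 0.851, 0.845, 0.737 and 0.819 for Hcn2, Hcn3, Hcn4 and Pex5l. On deviations from the group means the r of these 12 pairs ran from 0.87 to 0.99.

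Genes of HCN channel regulation, and related channels with a similar cyclic nucleotide binding domain, were counted in 4 lists of 76 symbols. Of these, 68 had a row and 65 passed the filter on low counts, 10 of them related channels. In edgeR 0 of the 65 passed the adjusted threshold, as in each of the 21 alternative fits, and 4 (6.15%) had an unadjusted p under 0.05, against 7.89% of all rows. All of these 4 had fitted changes below 0 with TMM and above 0 with total count scaling. With TMM, 3% of all rows were called lower and 4.89% higher. The median log2 change of the 65 was -0.07, beside -0.01 for all rows, with 47 genes below 0 and 18 above. With total count scaling 65 of 65 were above 0 and their median was 0.43, beside 0.50 for all rows. The groups overlapped for each of the 65, while they did not overlap for 0.923% of all rows.

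Among the 17 tested genes of partners and trafficking, log2 changes ran from -0.35 to 0.37. Against 7.89% of all rows, 1 of these genes (5.88%) had an unadjusted p under 0.05. This was Cltc, the clathrin heavy chain gene of the endocytic coat that TRIP8b can engage, with a sham mean of 394 CPM ± 43.8 (SD, n = 5) and a TBI mean of 346 CPM ± 17.9 (SD, n = 5). Its log2 change was -0.18 (standard error 0.0849), and the adjusted p from edgeR was 0.620. All 5 TBI rats lay below the sham mean, but they overlapped with the sham range of 342 to 434 CPM.

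Enzymes that make or break down cyclic nucleotides, the ligands of these channels, held the other 3. These were 10.7% of the 28 tested, against 7.89% of all rows with an unadjusted p under 0.05. Pde3a, a phosphodiesterase that hydrolyses cyclic AMP and is inhibited by cyclic GMP, had a sham mean of 1.96 CPM ± 0.474 (SD, n = 5) and a TBI mean of 1.38 CPM ± 0.236 (SD, n = 5), and its log2 change was -0.51 (standard error 0.191). Pde5a, which hydrolyses cyclic GMP, had means of 2.33 CPM ± 0.459 and 1.76 CPM ± 0.437 (n = 5 each), a log2 change of -0.43. Adcy8, a calcium-stimulated adenylyl cyclase, had means of 6.50 CPM ± 2.06 and 4.83 CPM ± 0.394 (n = 5 each), a log2 change of -0.40. Adcy8 ranged from 3.62 to 8.69 CPM among sham rats, a range that held all TBI rats. Its log2 change was -0.03 (unadjusted p = 0.862 in edgeR) with the ribosomal RNA share as covariate and -0.11 (unadjusted p = 0.530) without sham replicates 4 and 5, against -0.53 and -0.52 for Pde3a. From edgeR the adjusted p was 0.548 for Pde3a, 0.610 for Pde5a and 0.621 for Adcy8. An unadjusted p under 0.05 recurred in 19 of 21 alternative fits for Pde3a, 15 for Pde5a, 11 for Adcy8 and 10 for Cltc. These genes were named by this p and the fits reuse the same libraries, so the recurrence is not replication. The 28 tested genes of this list had 21 log2 changes below 0 and 7 above, with a median of -0.07, beside -0.01 for all rows. The share of all rows below 0 was not counted.

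The lists of kinases, phosphatase and repressor complex and of related channels held 0 genes with an unadjusted p under 0.05 among 10 tested in each. The share over all rows was 7.89%. Hdac2, a histone deacetylase, and Prkaca, a catalytic subunit of protein kinase A, had the smallest p of the kinase list, with a log2 change of -0.14 each. Among channels that share the cyclic nucleotide binding fold, Kcnh8 and Kcnh5 had the smallest p. Both are potassium channel genes of the ether-a-go-go family. Their log2 changes were -0.38 and -0.35, with standard errors of 0.243 and 0.379 (unadjusted p = 0.137 and 0.365 in edgeR). Kcnh8 had a log2 change of -0.19 without TBI replicate 2. Kcnh5 had a log2 change of 0.24 without sham replicates 4 and 5 and 0.09 without sham replicate 5.

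**Figure D5:**
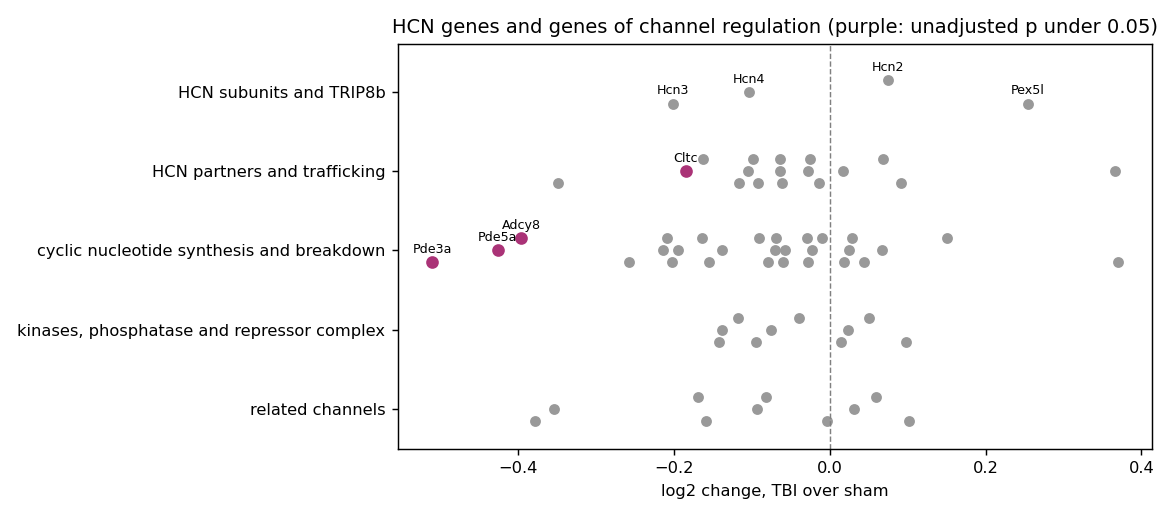
Log2 change of TBI over sham (horizontal axis) of the 4 members and of the 65 tested list genes, 1 point per gene, with genes of unadjusted p under 0.05 in purple and named. With TMM the 4 purple points lie below 0, all above 0 with total count scaling, and the members lie between -0.20 and 0.25.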

How the data were processed

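Poly-A RNA of each rat was sequenced as single reads of 36 bases. The authors aligned reads with BWA to the rat build rn4 and deposited raw counts per RefSeq RNA record, with no normalization; their methods name Ensembl transcripts, and how this goes with RefSeq rows was not settled. Of 32043 deposited rows, 32041 named an RNA record; the unmapped reads (12.8% to 26.1% of reads per library) and an empty entry were left out. Rows were named through a RefSeq table of assembly GRCr8 used for names only, which matched 54.21% of records. Reads of overlapping or antisense genes cannot be told apart, since counting was not stated to use strand.

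Rows with a total of at least 44 counts, the 30th percentile, were kept (22431). Groups were compared with edgeR 4.0.16 in R 4.3.3 (TMM, quasi-likelihood, robust, no covariate), with Benjamini-Hochberg adjustment over all rows. The fit was tested on simulated data with log2 changes larger than those of the members. The simulation held no ribosomal RNA or tissue differences between rats. It does not show how well changes of the members' size are found. Log2 CPM used a prior count of 2, and counts in ratios were raised by 0.5. Ratios were tested over the 252 labelled splits, and correlations with 100000 permutations. Alternatives covered DESeq2 1.42.0, limma 3.58.1, edgeR's exact test, other scalings and filters, a ribosomal RNA covariate and rats left out. Figures were drawn with matplotlib 3.10.9.

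The members and lists were chosen with earlier results of these data known. List genes were named if their unadjusted p was under 0.05, at most 4 per direction and list, or else the 2 with the smallest p. For likeness, the 3 symbols of highest r were named. 1 gene of the lists is not reported here. Replicate numbers follow sample order and pair no rats; each sample is a separate animal, per the methods. The labels give 5 sham libraries and all were used, although the methods name 3 controls for the TBI mRNA comparison; which 3 was not stated.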

Additional observations from a re-analysis of the deposited data

Results flagged for a closer look

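In 20 groups of 5 rats (4 genes and 6 ratios in each group), 1 held a rat whose distance to its nearest neighbour exceeded Dixon's 95% limit; about 5% of groups do so by chance. This was sham replicate 1, with 10.9 CPM of Hcn3, where the other sham rats had 4.94 to 6.12 CPM. It rests on 348 reads. The gap was 0.801 of the sham range, against a limit of 0.71.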

How the results depend on the processing

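None of the 4 members passed an adjusted p of 0.05 under any of the 21 alternative fits, and none of the 6 ratios or 6 correlations did under their 13 alternatives. Directions of Hcn2 and Pex5l were kept in all 21. With total count scaling the log2 change was 0.27 for Hcn3, 0.36 for Hcn4, 0.30 for Cltc, 0.0057 for Pde3a, 0.045 for Pde5a, 0.20 for Adcy8, 0.38 for Hdac2, 0.39 for Prkaca, 0.14 for Kcnh8 and 0.28 for Kcnh5. This scaling counts ribosomal RNA as library size. With ribosomal RNA share as covariate Kcnh5 was 0.49, and it was 0.24 without sham replicates 4 and 5. With each rat left out in turn, log2 changes ran from -0.29 to 0.049 (without sham replicate 1) for Hcn3, -0.19 to 0.024 (without sham replicate 1) for Hcn4 and -0.61 to 0.092 (without sham replicate 5) for Kcnh5. The ratio of Hcn2 over Pex5l then ran from -0.26 to 0.033 and that of Hcn3 over Hcn4 from -0.21 to 0.047, both highest without TBI replicate 1. The r of Hcn2 with Hcn4 ran from -0.15 to 0.45, of Hcn2 with Pex5l from -0.44 to 0.20 and of Hcn3 with Pex5l from -0.51 to 0.10. On CPM outside ribosomal RNA without TMM, the r of Pex5l was 0.45 with Hcn2 and 0.12 with Hcn3. List genes with an unadjusted p under 0.05 numbered 4, but 2 with total count scaling, 2 with the covariate and 1 (without TBI replicate 5) to 7 (without sham replicate 3) when a rat was left out, and 2 without sham replicate 2, TBI replicate 1 or TBI replicate 4. For all rows this number was 1769, but 3788 with total count scaling, 992 with the covariate and 1162 (without sham replicate 2) to 2571 (without sham replicate 3) when a rat was left out. What caused these shifts was not tested. Summing rows per symbol left the ratios as they were, since each member had 1 row. Among the 4 members, low counts limit Hcn4 most. Kcnh8 and Kcnh5 were about as low, with means of 1.29 and 1.20 CPM in sham rats and 0.986 and 0.868 CPM in TBI rats. No paired analysis was possible because the labels give no replicate number that groups share.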
